A study of Mus musculus with 8 samples.

Results

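Microglia are the resident macrophages of the brain, and 30 genes of microglia and macrophages were followed here in the hippocampus of mice with a knockout of the kinase gene Dclk3 and of wild-type mice. The 30 genes were taken from a written list of symbols, chosen with earlier results of these data known. All 30 were found among the 31417 genes of the count table. For this report they were sorted by textbook role into 9 genes of homeostatic (surveying) microglia, 9 genes of reactive microglia and 12 genes used in both states. The homeostatic genes were Cx3cr1, P2ry12, P2ry13, Tmem119, Csf1r, Siglech, Gpr34, Olfml3 and Selplg, and the reactive genes were Trem2, Tyrobp, Fcer1g, Fcgr3, Cd68, Ctss, Lgmn, Cd74 and Itgax. The genes of both states were C1qa, C1qb, C1qc, Spi1, Irf8, Cd33, Aif1, Itgam, Ptprc, Cd53, Ly86 and Laptm5. The study held 4 libraries of poly(A) RNA from Dclk3 knockout (KO) mice and 4 from wild-type (WT) mice serving as their controls, all 12 months old, with no treatment named in the labels. Each library came from the bulk tissue of 1 hippocampus. The strain, the form of the Dclk3 allele and whether the 4 libraries of a genotype came from 4 animals are unknown (not given in the sources used here), so p-values measure only the spread between these samples, which may be partly technical.

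Homeostatic microglia sense their surroundings with fine processes, through receptors for the neuronal chemokine fractalkine, for nucleotides released by stressed cells and for the growth factors that keep them alive. When they meet debris, plaques or dying cells, the receptor Trem2 and its adaptor Tyrobp support a shift in which homeostatic genes are known to go down and genes of phagocytosis, lysosomes and antigen presentation to go up. In the hippocampus microglia are known to prune synapses, in part by way of complement, whose first component C1q they produce. Macrophages at the borders of the brain, in the meninges, around vessels and in the choroid plexus, share many of these genes and carry more of the machinery for presenting antigen.

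Libraries held between 29301974 and 36552757 counts. Levels are given as CPM, read counts divided by library size in the customary unit, with library sizes adjusted by TMM (trimmed mean of M values) factors, and 1 count equalled 0.0272 to 0.0346 CPM. The level of Dclk3, the targeted gene, was 26.7 ± 8.51 CPM in WT against 7.71 ± 1.42 CPM in KO (each a mean ± SD of 4 libraries, n = 4, as in all pairs of means below). The genotypes did not overlap, and DESeq2 called the gene (adjusted p = 5.25e-14), while edgeR did not (log2 fold change -1.79, adjusted p = 0.234). The fold change lay between -1.88 and -1.54 with each library left out. Marker genes of other cell types also lay mostly on one side of 0, none with an adjusted p under 0.05 by edgeR. Of 10 marker genes each, 9 of neurons lay below 0 in log2 fold change (median -0.10, 2 with an unadjusted p under 0.05), while 9 of oligodendrocytes (median 0.14, 1 with such a p) and 8 of astrocytes (median 0.048) lay above 0. So did 9 of choroid plexus and 8 of endothelium and pericytes, and 5 of 8 of meningeal fibroblasts. Without KO replicate 4 the endothelial count was 2. Leaving out KO replicate 2 lowered the choroid plexus count to 0, leaving out WT replicate 4 to 4 and leaving out WT replicate 1 to 5, and the fibroblast count ran from 1 (without KO replicate 4 or WT replicate 4) over 2 (without WT replicate 1) to 8 (without WT replicate 3). The summed level of 10 choroid plexus genes ran from 78.4 to 2267 CPM in WT and from 196 to 3496 CPM in KO. The astrocyte gene Gfap reached 1805 CPM in WT replicate 2 against 442 to 578 CPM in the other 7 libraries. What part these differences had in the values below was not tested, apart from leaving out each library in turn.

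No microglial member passed the test between KO and WT, and most fold changes were small. All 30 members passed the filter on low counts. At an adjusted p under 0.05, edgeR's quasi-likelihood test with Benjamini-Hochberg adjustment called 0 of the 16228 genes tested (0%) and 0 of 30 members, whose adjusted p ran from 0.796 to 0.999. DESeq2 called 5 of 15580 genes (0.0321%) and 0 members. At an unadjusted p under 0.05 edgeR listed 1000 genes (6.16%) and 2 members, Siglech and Cd33, both with higher means in KO. Genes with such a p and higher means in KO made up 3.96% of all tested and those with lower means 2.20%. No member had KO and WT values that did not overlap, against 3.80% of all genes. The log2 fold change of KO over WT lay above 0 in 23 of 30 members, against 50.1% of all genes, with a median of 0.046 over the members and 0.00029 over all tested genes. It ran from -0.25 for Itgax to 0.26 for Spi1. In 21 of 30 members (70.0%) it was smaller than 0.1 in either direction, against 55.6% of all tested genes. Among the 10150 tested genes with a mean of 5 to 160 CPM that share was 65.9%, so small values were common at that level. The count of 23 was 16 without KO replicate 4 and 17 without WT replicate 4. The median over the members was 0.0029 and 0.0095 without those libraries, and up to 0.096 without KO replicate 2. For 26 members the range of 2 standard errors (SE) around the log2 fold change lay within 0.5 of 0 on either side. These SEs hold only the spread between these samples, so the ranges need not bound a difference between animals of the 2 genotypes. In bulk tissue, fewer cells of a type and less RNA per cell cannot be told apart.

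**Figure D1:**
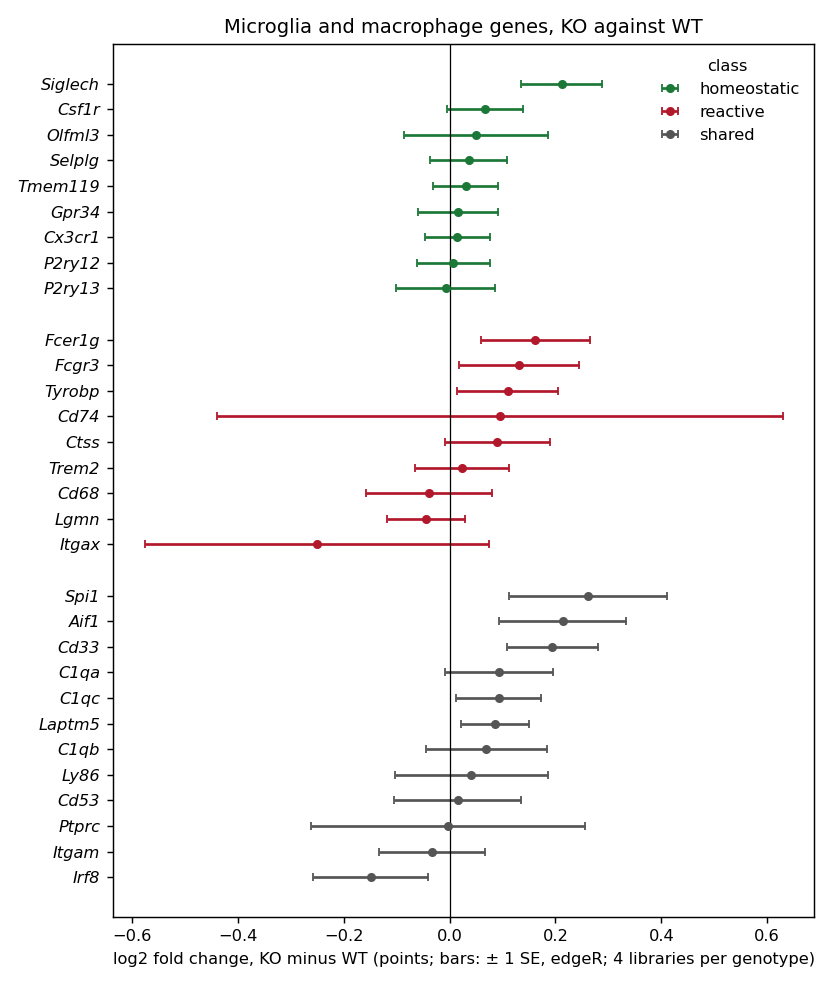
Log2 fold change of KO over WT for each of the 30 members, in 3 classes by role. Bars reach the SE on either side, from the edgeR fit on 4 libraries per genotype, and are narrower than the ranges of 2 SE in the text. Most points lie within 0.1 of the zero line, and the widest bars belong to Cd74, Itgax and Ptprc.

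Among the homeostatic genes, the receptors that define surveying microglia had nearly the same level in both genotypes. Cx3cr1, the receptor for fractalkine, stood at 101, 94.8, 85.8 and 89.4 CPM in WT replicates 1 to 4 and at 97.8, 91.4, 91.3 and 94.0 CPM in KO replicates 1 to 4. The KO values lay inside the WT range, and the log2 fold change was 0.015 (SE 0.06). For P2ry12, the nucleotide receptor that steers microglial processes toward released ADP, the WT libraries gave 63.3, 52.4, 55.1 and 57.3 CPM and the KO libraries 58.6, 58.5, 59.4 and 52.8 CPM. The means of 57.0 ± 4.67 and 57.3 ± 3.07 CPM differed by less than either SD, although KO replicate 4 stood apart below the other KO libraries. Its neighbour on chromosome 3, the related receptor gene P2ry13, gave 18.0 ± 2.40 CPM in WT against 17.9 ± 0.808 CPM in KO. The ratio of P2ry12 to P2ry13 kept between 2.95 and 3.38 over the 8 libraries, with no order by genotype.

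Tmem119, a membrane protein used to tell microglia from incoming macrophages, was measured at 36.5, 35.3, 32.1 and 32.8 CPM in WT and at 35.3, 33.6, 34.2 and 36.7 CPM in KO. It had the narrowest spread of the homeostatic genes, and its log2 fold change of 0.031 (SE 0.06) left a range of -0.092 to 0.154 at 2 SE. Csf1r, the receptor on whose signal microglia depend for survival, gave 156, 146, 140.5 and 148 CPM in WT against 147, 142, 155 and 175 CPM in KO. Only KO replicate 4 lay above the WT range, and the log2 fold change of 0.067 was 0.00020 without that library. Part of the exon length of Csf1r (15.1%) overlaps Hmgxb3 on the other strand, so its count is uncertain where strand was not used in counting. Gpr34, a receptor for lysophosphatidylserine, had means of 19.6 ± 1.81 and 19.8 ± 0.653 CPM in WT and KO. Selplg, the ligand of P-selectin, had means of 34.3 ± 2.49 and 35.1 ± 2.39 CPM. Olfml3, a secreted glycoprotein, was at 30.9 to 32.1 CPM in KO replicates 1 to 3 and at 46.3 CPM in KO replicate 4, against 29.8 to 38.7 CPM in WT. Its means of 34.0 ± 3.69 and 35.2 ± 7.46 CPM differed by less than either SD.

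Siglech, a sialic acid-binding receptor of microglia that signals through Tyrobp, had the smallest p of the members. It was at 20.4, 17.9, 16.8 and 18.2 CPM in WT replicates 1 to 4 and at 22.3, 21.8, 19.5 and 21.4 CPM in KO replicates 1 to 4. Of the KO libraries 3 lay above all WT libraries and the other, KO replicate 3, lay below WT replicate 1. The log2 fold change was 0.21 (SE 0.08, adjusted p = 0.796 by edgeR), with a range of 0.059 to 0.365 at 2 SE. It stayed between 0.18 and 0.27 with each library left out, and its unadjusted p was 0.055 without WT replicate 3. Siglech lies at mm10 chromosome 7, 55768178 to 55778925, on the plus strand.

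Of the 9 reactive genes 6 had a log2 fold change above 0, or 3 without KO replicate 4, and none had an unadjusted p under 0.05. Trem2, the lipid-sensing receptor that drives the reactive programme, stood at 17.0, 15.2, 14.5 and 13.4 CPM in WT and at 15.2, 15.3, 14.0 and 16.5 CPM in KO. The KO range sat inside the WT range, and the log2 fold change was 0.023 (SE 0.09). Tyrobp, which passes on the signal of Trem2 and of Siglech, was at 19.0, 16.5, 17.3 and 15.8 CPM in WT and at 21.1, 17.1, 16.5 and 19.3 CPM in KO. KO replicates 1 and 4 were the highest libraries for Tyrobp, and the other KO libraries lay within the WT range (log2 fold change 0.11, SE 0.09). Fcer1g and Fcgr3 belong to a second receptor system, which binds antibody-coated targets. Fcer1g, the common gamma chain of activating Fc receptors, had means of 6.54 ± 0.400 CPM in WT against 7.32 ± 0.664 CPM in KO. Fcgr3, an activating receptor for IgG, had means of 12.0 ± 1.39 and 13.2 ± 1.58 CPM, and 9.58% of its 50-base stretches also occur in another gene, mainly Fcgr2b, so that shared reads make its level uncertain.

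Ctss and Lgmn, which encode lysosomal proteases, had the highest levels per transcript length among the reactive members. Ctss, the cathepsin that trims the invariant chain, was at 95.3, 97.6, 78.8 and 86.3 CPM in WT and at 86.5, 88.9, 92.1 and 114 CPM in KO. KO replicate 4 alone exceeded the WT range, and without it the log2 fold change of 0.091 became -0.0069. Lgmn, an asparaginyl endopeptidase of the same compartment, had means of 113 ± 8.88 and 110.1 ± 8.28 CPM in WT and KO. Cd68, a lysosomal membrane protein used as a stain for phagocytic microglia, had means of 10.4 ± 1.44 and 10.1 ± 1.10 CPM. Divided by transcript length, so that genes can be compared with each other, the mean level over the 8 libraries was 68.2 CPM per kilobase for Ctss and 56.2 for Lgmn. The same level was 31.6 CPM per kilobase for Tyrobp and 0.108 for Itgax, the lowest of all 30 members.

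Cd74 varied more between libraries of a genotype than its genotype means differed. Cd74, the invariant chain of MHC class II, stood at 2.20, 7.57, 8.03 and 2.19 CPM in WT replicates 1 to 4 and at 6.01, 3.44, 2.94 and 8.89 CPM in KO replicates 1 to 4. Both genotypes held 2 high and 2 low libraries, the highest being 4.05 times the lowest, and the log2 fold change was 0.095 with an SE of 0.53. The same 4 libraries, WT replicates 2 and 3 and KO replicates 1 and 4, were the highest for Cd74, Ptprc and Itgax among the members. They were also the highest for the class II genes H2-Aa, H2-Ab1 and H2-Eb1 and for Mrc1, Cd163, F13a1 and Lyve1 of border macrophages. Col1a1, Col1a2, Lum, Slc22a6 and Islr of meningeal fibroblasts, and Spp1, had the same 4 highest libraries. These genes were chosen after their values were seen, and Pf4, Cbr2 and Fmod of the same marker lists had a different set of 4. The class II genes H2-DMa and H2-DMb1 also had other highest libraries. H2-DMa had its lowest levels in WT replicate 2 (13.2 CPM) and KO replicate 4 (13.3 CPM), and H2-DMb1 was high in KO replicate 2 (1.65 CPM). The remaining genes of these lists were not ranked in this way. For Ptprc and Itgax the lowest of these 4 libraries and the next one lay close, at 4.52 and 4.45 CPM and at 0.448 and 0.430 CPM. H2-Aa was at 0.835, 3.71, 4.11 and 0.844 CPM in WT and at 2.45, 1.69, 0.934 and 5.57 CPM in KO. Mrc1, the mannose receptor of border macrophages, was at 4.48, 5.21, 9.83 and 4.39 CPM in WT and at 6.75, 4.36, 3.56 and 12.3 CPM in KO. Cx3cr1 had no such pattern, and the ratio of Cd74 to Cx3cr1 ran from 0.022 to 0.095. Itgax, an integrin of reactive microglia and of dendritic cells, rested on 7 to 21 counts per library, or 0.242 to 0.655 CPM. Its log2 fold change of -0.25 had an SE of 0.32, and it was -0.055 without WT replicate 2, -0.088 without KO replicate 3 and -0.40 without WT replicate 1. In sequence, 8.02% of its 50-base stretches also occur in another gene, mainly Itgad.

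**Figure D2:**
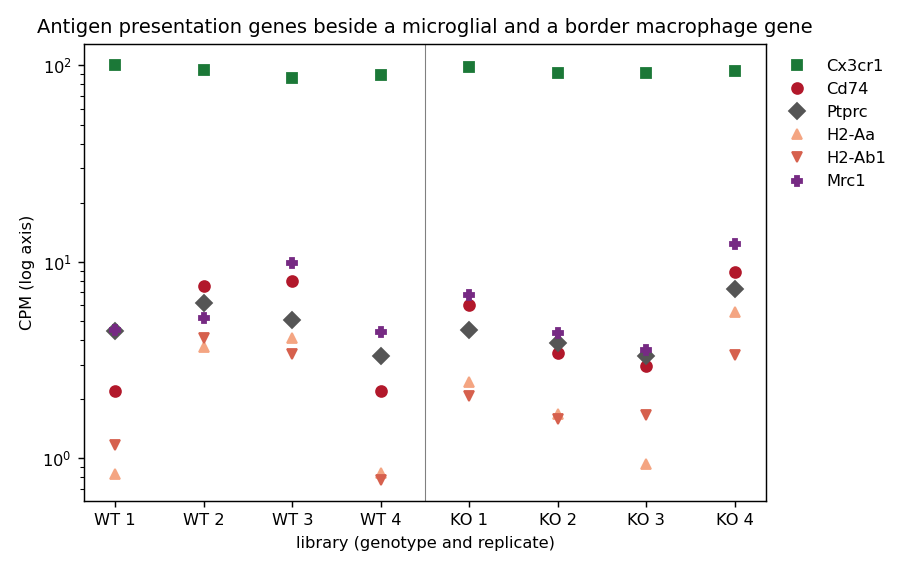
CPM on a log axis in each of the 8 libraries for Cd74, the leukocyte gene Ptprc, the class II genes H2-Aa and H2-Ab1, the border macrophage gene Mrc1 and the microglial gene Cx3cr1. Cd74, H2-Aa and H2-Ab1 are higher in WT 2, WT 3, KO 1 and KO 4 than in the other libraries, while Cx3cr1 stays between 85.8 and 101 CPM.

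Of the members used in both states, the 3 chains of C1q had the highest levels per kilobase of transcript. C1qa, C1qb and C1qc lie side by side on the minus strand of mm10 chromosome 4, from 136880129 to 136898803, and encode the chains that assemble into 1 complement component. C1qa was at 60.1, 62.6, 52.5 and 53.0 CPM in WT and at 55.6, 56.0, 57.7 and 74.2 CPM in KO. C1qb was at 59.5, 61.6, 49.7 and 53.1 CPM in WT and at 55.7, 50.4, 56.0 and 72.9 CPM in KO. C1qc was at 51.3, 52.9, 47.0 and 47.5 CPM in WT and at 50.4, 47.9, 52.5 and 61.1 CPM in KO. All 3 chains were highest in KO replicate 4, and the other KO libraries lay within the WT range. Their log2 fold changes were 0.093 (SE 0.10), 0.070 (SE 0.11) and 0.093 (SE 0.08), and without KO replicate 4 they were -0.018, -0.052 and 0.015. The 3 chains kept step with each other in every library, with a ratio of 0.997 to 1.11 for C1qa over C1qb and of 1.10 to 1.21 for C1qa over C1qc. Per kilobase of transcript, mean levels were 56.7 CPM for C1qa, 52.7 for C1qb and 42.7 for C1qc.

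The upstream sequences of 4 members are shown because the myeloid factor PU.1, the product of the member Spi1, is known to bind purine-rich sites with a GGAA core near such genes. RefSeq windows of 250 bases before the start (GRCm38.p6, the build mm10) were found for 22 of 30 members, with 26 windows among them. The letters GGAAGT were searched on both strands, as ACTTCC on the other one. They occurred in 9 of the 26 windows, belonging to 8 members, C1qb, C1qc, Cd33, Itgax, Laptm5, P2ry12, Ptprc and Siglech, and in 19.7% of all 32841 windows. The longer GAGGAAGT, which contains GGAAGT, was in 1 member, C1qc, and in 2.44% of all windows. Sequences run 5' to 3' along each gene, and capitals mark ACTTCC, the match on the other strand. C1qb (chr4:136886201-136886450, minus strand) holds it 53 bases before the RefSeq start. C1qc (chr4:136893066-136893164, minus strand) holds it 195 bases before that start, counted with 151 exonic bases of its window that are not printed. Siglech (chr7:55767934-55768177, plus strand) holds it 156 bases before, counted with 6 such bases. Trem2 (chr17:48346151-48346400, plus strand) holds none. Windows of other members also overlapped annotated exons, as for P2ry12 (250 bases, of Med12l) and Laptm5 (191 bases). A match of letters is a description and not a binding site.
C1qb: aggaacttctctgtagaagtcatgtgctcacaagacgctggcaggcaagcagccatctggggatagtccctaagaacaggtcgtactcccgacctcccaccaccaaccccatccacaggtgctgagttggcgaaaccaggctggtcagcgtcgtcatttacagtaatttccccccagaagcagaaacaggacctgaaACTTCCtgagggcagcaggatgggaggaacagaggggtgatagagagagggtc
C1qc: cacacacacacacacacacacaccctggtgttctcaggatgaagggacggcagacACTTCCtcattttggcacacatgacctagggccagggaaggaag
Siglech: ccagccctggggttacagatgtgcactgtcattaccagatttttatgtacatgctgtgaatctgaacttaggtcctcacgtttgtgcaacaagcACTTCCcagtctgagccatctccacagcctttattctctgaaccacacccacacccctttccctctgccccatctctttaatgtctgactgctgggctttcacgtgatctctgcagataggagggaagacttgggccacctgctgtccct
Trem2: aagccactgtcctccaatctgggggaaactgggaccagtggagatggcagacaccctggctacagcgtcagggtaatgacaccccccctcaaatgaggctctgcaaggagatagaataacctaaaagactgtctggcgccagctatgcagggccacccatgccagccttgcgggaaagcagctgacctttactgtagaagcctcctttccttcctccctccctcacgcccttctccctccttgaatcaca

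The transcription factors of the myeloid lineage had opposite signs, and neither passed the test. Spi1 was at 3.76, 3.52, 3.12 and 2.84 CPM in WT and at 4.54, 3.64, 3.32 and 4.35 CPM in KO. KO replicates 1 and 4 lay above the WT range and the other KO libraries within it, and the log2 fold change of 0.26 (SE 0.15, adjusted p = 0.796 by edgeR) was the highest of the members. Irf8, which acts with PU.1 in microglia, was at 5.76, 6.11, 5.27 and 5.30 CPM in WT and at 5.31, 5.09, 5.36 and 4.48 CPM in KO. The genotypes overlapped, and its log2 fold change was -0.15 (SE 0.11). In KO replicate 4 Irf8 had its lowest level and was the only member that did, while 12 of 30 members had their highest level there.

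Cd33, a sialic acid-binding receptor of myeloid cells, was the other member with an unadjusted p under 0.05. Its level was 11.2, 11.8, 11.2 and 10.8 CPM in WT against 14.0, 13.6, 12.3 and 11.5 CPM in KO. KO replicates 1 to 3 lay above the WT range and KO replicate 4 lay within it. The log2 fold change was 0.19 (SE 0.09, adjusted p = 0.796 by edgeR), and the unadjusted p of DESeq2 was above 0.05. Leaving out WT replicate 1, 3 or 4 or KO replicate 1, 2 or 3 each left Cd33 with an unadjusted p above 0.05, with log2 fold changes between 0.15 and 0.24 over all 8 libraries left out in turn. Without WT replicate 3 neither Siglech nor Cd33 had a p under 0.05, so 0 members remained on that side.

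None of the general markers of myeloid cells passed the test, and Aif1 had the largest log2 fold change among them. Aif1, the calcium-binding protein stained as Iba1, was at 6.18, 5.64, 4.88 and 4.89 CPM in WT and at 6.72, 5.49, 6.16 and 6.69 CPM in KO. KO replicates 1 and 4 exceeded every WT library, and the log2 fold change was 0.21 (SE 0.12, adjusted p = 0.796 by edgeR). Ptprc, the pan-leukocyte phosphatase CD45, ran from 3.31 to 6.17 CPM in WT and from 3.32 to 7.26 CPM in KO. Its log2 fold change of -0.0024 had an SE of 0.26, so the range at 2 SE reached from -0.52 to 0.515. Laptm5, a lysosomal membrane protein of leukocytes, had means of 52.7 ± 3.06 CPM in WT against 55.9 ± 3.51 CPM in KO. Cd53, a tetraspanin, gave 11.4 ± 1.20 and 11.5 ± 1.65 CPM. Ly86, a partner of a Toll-like receptor homologue, ran from 10.2 to 15.7 CPM in WT and from 11.4 to 14.9 CPM in KO. Itgam, the integrin chain CD11b, gave 10.0 ± 1.12 and 9.78 ± 0.550 CPM. The exons of Itgam share 68.7% of their length with the gene model Gm49368 on the same strand, so how reads of that stretch were counted decides its level.

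Homeostatic and reactive members did not part the genotypes. All 9 reactive genes were also counted in WT, with means from 0.476 CPM for Itgax to 113 CPM for Lgmn. A class score is therefore not a measure of microglial state. The class score, the mean log2 CPM of the 9 genes of a class centred on the 8 libraries, was -0.024 ± 0.089 in WT and 0.024 ± 0.045 in KO for the homeostatic genes. For the reactive genes it was -0.024 ± 0.19 in WT and 0.024 ± 0.18 in KO. KO exceeded WT by 0.048 in both classes, and by 0.070 for the 12 genes of both states. The homeostatic score minus the reactive score, before centring, was 1.93, 1.47, 1.55 and 1.89 in WT replicates 1 to 4 and 1.65, 1.78, 1.86 and 1.55 in KO replicates 1 to 4. The means of 1.71 ± 0.23 and 1.71 ± 0.14 differed by -9.74e-05, far less than the spread between libraries of a genotype. The libraries with a low value, WT replicates 2 and 3 and KO replicates 1 and 4, were those with high Cd74. With Cd74 and Itgax left out of the reactive class the difference between genotypes was -0.014. The SDs of the reactive score were then 0.092 in WT and 0.098 in KO, so much of its spread came from those genes. The median log2 fold change was 0.031 for the homeostatic genes, with 8 of 9 above 0, and 0.091 for the reactive genes, with 6 of 9 above 0. These values rested on single libraries. Without KO replicate 4 the reactive median was -0.018, with 3 of 9 above 0, and without WT replicate 4 it was -0.030, with 4 of 9. The homeostatic median was 0.0082 without WT replicate 3, with 5 of 9 above 0. For the genes of both states the median of 0.078, with 9 of 12 above 0, was -0.025 without KO replicate 4, with 5 of 12.

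**Figure D3:**
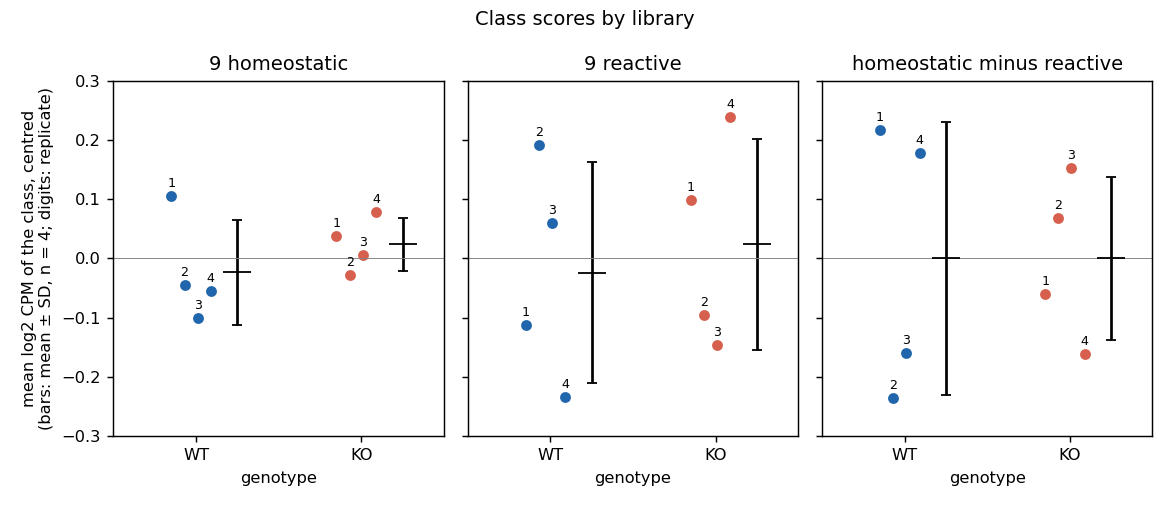
Class scores per library, as mean log2 CPM centred on the 8 libraries, for the 9 homeostatic members, the 9 reactive members and the first minus the second, with points for libraries (digits are replicates) and bars for the mean and SD of each genotype. The genotypes overlap in every panel. The reactive score has the wider spread, with SDs in WT and KO of 0.19 and 0.18 against 0.089 and 0.045 for the homeostatic score. Without Cd74 and Itgax the reactive SDs are 0.092 and 0.098.

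In some libraries most members lay on one side of their mean. In KO replicate 4, 25 of 30 members lay above their own mean over the 8 libraries, with a median deviation of 0.14 on the log2 scale. In WT replicate 1, 23 members lay above and in KO replicate 1, 20. At the other end, WT replicate 4 had 4 members above their mean and WT replicate 3 had 5, with median deviations of -0.11 and -0.10. WT thus held both high and low libraries. WT replicate 1 was the highest library for 5 of the 9 homeostatic genes and KO replicate 4 for 6 of the 12 genes of both states. In WT replicate 3, 12 of 30 members had their lowest level. KO replicate 4 also had the highest summed level of border macrophage genes, 37.7 CPM against 10.1 to 25.5 CPM in the other libraries, and the highest sum of endothelial and pericyte genes, 643 CPM against 485 to 586 CPM. The part of those cells in the member values was not tested.

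**Figure D4:**
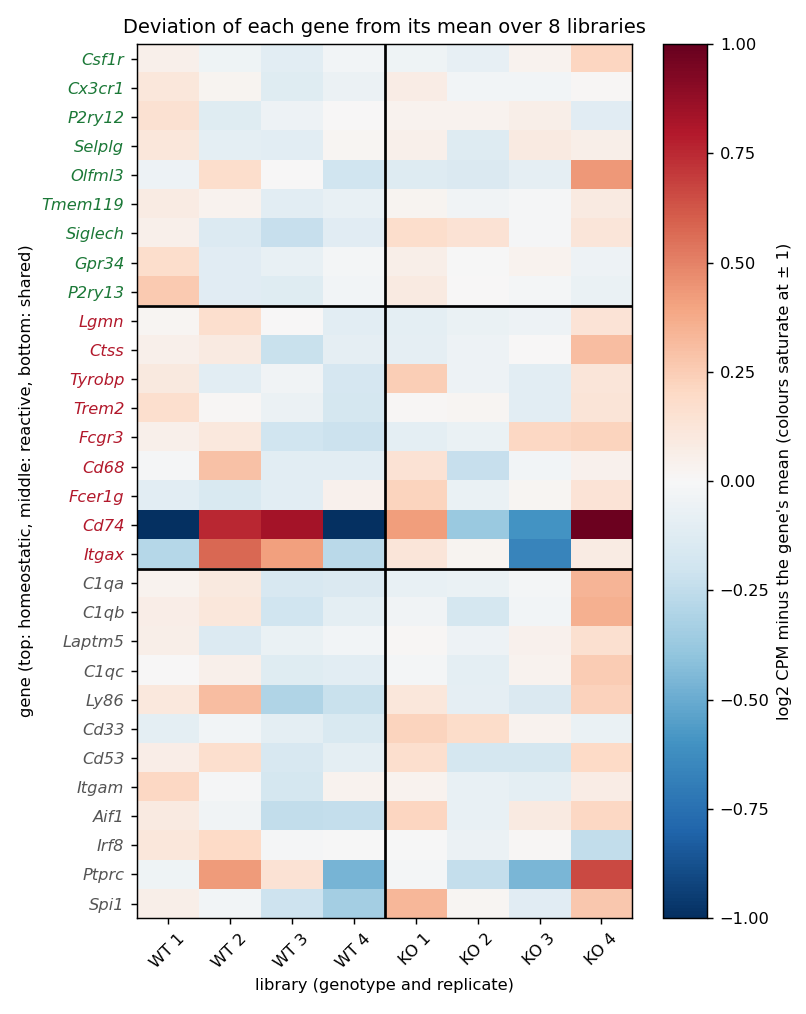
Deviation of each member (rows, by class) from its own mean log2 CPM in each of the 8 libraries (columns), with colours that saturate at 1 in either direction. KO 4 and WT 1 are mostly above the mean and WT 3 and WT 4 mostly below it, and Cd74 has the strongest contrasts.

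Homeostatic genes also had the lowest median spread between libraries of a genotype, but the classes differed in level. The median within-genotype SD of log2 CPM was 0.10 for the homeostatic genes, 0.16 for the reactive genes and 0.16 for the genes of both states. Cd74 had the largest SD of the members, 0.90. Itgax lay at the low end of the level range, where all genes spread more. No homeostatic gene had a mean over the 8 libraries below the 17.9 CPM of P2ry13, while most genes of the other classes did. The classes were not compared at equal level, so the difference in SD cannot be told apart from the difference in level. For the 27 members with a mean of 5 to 160 CPM the median SD was 0.12, the same as the 0.12 of the 10150 tested genes in that window.

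**Figure D5:**
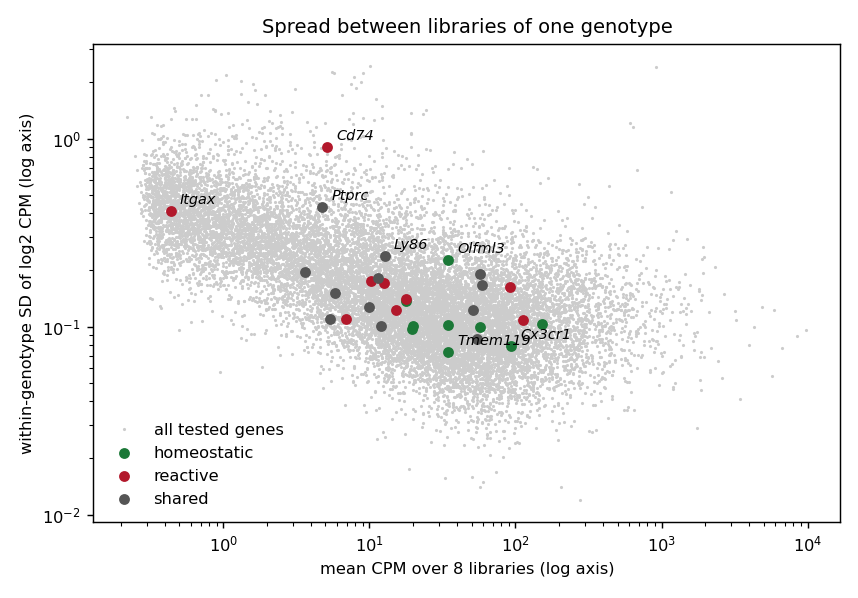
Within-genotype SD of log2 CPM against mean CPM over the 8 libraries (both axes log) for all tested genes in grey and the members in colour by class. Members lie within the cloud of genes of like level, with Cd74 near its upper edge at an SD of 0.90.

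Other genes of microglia and of the members' pathways were read from written lists. Of 20 further homeostatic genes 19 were tested and 14 lay above 0 in log2 fold change (median 0.060), and none passed an adjusted or unadjusted p of 0.05. By lowest p these were led by Slc2a5, a fructose transporter of microglia, with means of 7.05 ± 0.594 CPM in WT against 8.17 ± 0.621 CPM in KO (a log2 difference of 0.21, adjusted p = 0.796 by edgeR). Ltc4s, leukotriene C4 synthase, had means of 2.59 ± 0.457 and 3.70 ± 1.29 CPM. Csf3r, a colony-stimulating factor receptor, had means of 4.33 ± 0.422 and 5.04 ± 0.260 CPM, and its genotypes did not overlap, as in 3.80% of all genes, but the highest WT and lowest KO libraries were at 4.64 and 4.66 CPM, less than the worth of 1 count apart. Hpgds, a prostaglandin D synthase, had means of 7.26 ± 0.357 and 8.19 ± 0.596 CPM.

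Of 22 further reactive genes 17 were tested, and 10 lay above 0 in log2 fold change (median 0.030), with none at an unadjusted p under 0.05. Without KO replicate 4 the count was 7 and the median -0.0045, and without WT replicate 4 the median was 0.00054. The costimulatory gene Cd86 had means of 2.43 ± 0.323 CPM in WT against 2.91 ± 0.276 CPM in KO. The lysosomal cathepsin gene Ctsz had means of 36.3 ± 3.25 and 39.4 ± 1.98 CPM. Lyz2, lysozyme of macrophages, had means of 10.8 ± 2.67 and 13.4 ± 5.08 CPM, with 20.7 CPM in KO replicate 4 the highest library. Apoe, a lipid carrier made by astrocytes too, had means of 1381 ± 179.8 and 1499 ± 197 CPM. The inflammatory genes Tnf, Il1b, Ccl3 and Ccl4, and Cst7 of reactive microglia, lay below the filter, none above 0.405 CPM in any library.

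Ligands and signalling partners of the members gave 7 of 15 tested genes above 0, with a median of -0.026, and 4 without KO replicate 4. Cx3cl1, the neuronal ligand of Cx3cr1, had means of 658 ± 37.1 CPM in WT against 609 ± 65.4 CPM in KO. The ligands of Csf1r had means closer than their SDs: Il34 had means of 50.4 ± 3.59 and 51.3 ± 8.95 CPM, and Csf1 of 31.9 ± 4.16 and 31.6 ± 1.83 CPM. Cd47, which restrains phagocytosis, ran from 145 to 154 CPM in WT and from 137 to 149.7 CPM in KO. Plcg2, which acts downstream of Trem2, had means of 6.74 ± 0.525 and 7.52 ± 0.596 CPM. The complement protease gene C1s1 had means of 1.01 ± 0.354 and 1.41 ± 0.725 CPM. None of these partners had an unadjusted p under 0.05.

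Genes of neighbouring immune cells were examined because the samples could hold such cells. Of 6 MHC class II genes 5 were tested and 3 lay above 0 in log2 fold change (median 0.0069). Leaving out either KO replicate 4 or WT replicate 4 lowered that count of 3 to 0, and leaving out WT replicate 1 lowered it to 1. H2-DMa, which loads peptide and was the class II gene with the lowest p, ran from 13.2 to 16.3 CPM in WT and from 13.3 to 15.2 CPM in KO. H2-DMb1 had means of 1.21 ± 0.208 and 1.30 ± 0.444 CPM. H2-Ab1 ran from 0.776 to 4.08 CPM in WT and from 1.59 to 3.36 CPM in KO. Of 13 genes of border macrophages and monocytes 8 were tested, and all 8 lay above 0 in log2 fold change (median 0.28), but 1 of 8 did without KO replicate 4, where the median was -0.14. Cbr2, Cd163, F13a1 and Pf4 had the lowest p of them, with log2 fold changes of 0.53, 0.44, 0.34 and 0.30 and no unadjusted p under 0.05. Ly6c2, Plac8, S100a8 and S100a9, which mark blood monocytes and neutrophils, were at 0 counts in at least 1 library.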

How the data were processed

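Poly(A) RNA of 8 hippocampus samples was sequenced with a stranded kit, per the labels' protocols. The authors deposited a table of raw read counts, whole numbers for each Ensembl gene and library that were not normalized. The submitters' processing notes name bcl2fastq 2.17.1.14 and the build mm10. Aligner, counting tool and the use of strand in counting: not given in the sources used here. Symbols were found for 31292 of 31417 gene IDs, and 2353 genes had no count.

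Counts were tested in R 4.3.3 with edgeR 4.0.16 (TMM, filterByExpr, robust quasi-likelihood F test) on all 8 libraries with no covariate, adjusted over all tested genes. The SE is the size of the log2 fold change divided by the square root of F. Log2 CPM used a prior count of 2. Replicates of a genotype differed by more than sampling noise (chi-square per degree of freedom 8.85 to 40.9, using genes whose counts summed to 20 or more), so none were merged. Without molecular identifiers, PCR copies are not separate molecules.

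The members and the gene lists were chosen with earlier results of these data known. All 30 members are named, with up to 4 genes of lowest p from each list of microglial, macrophage, ligand and class II genes. Any other gene was picked after seeing its values. Class scores are given without a test. Levels per kilobase used the length of the principal transcript. Alternatives were DESeq2 1.42.0, DESeq2 size factors in edgeR, no filter, a filter of 1 CPM in 4 libraries, the replicate number as a block, other class scores and each library left out in turn. Leaving libraries out of the list and class counts was added after seeing the data. The fits were also run on simulated counts, drawn for each gene separately from its mean and spread. Such draws hold no shift shared by many genes of a library, so they do not show what share of real changes would be found. A further marker list is not reported here.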

Additional observations from a re-analysis of the deposited data

Results flagged for a closer look

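In 5 of 108 groups of 4 libraries the highest or lowest library lay far from the other 3, by more than the 95% limit of Dixon's test, where chance gives about 1 in 20. For P2ry12, KO replicate 4 was low at 52.8 CPM against 58.5 to 59.4 CPM in the other KO libraries. Olfml3 was high in the same library, 46.3 CPM against 30.9 to 32.1 CPM. So was C1qa, at 74.2 CPM against 55.6 to 57.7 CPM. Itgax was low in KO replicate 3, at 0.242 CPM against 0.430 to 0.463 CPM. Among the genes that are not members, Slc2a5 was high in WT replicate 1, at 7.93 CPM against 6.64 to 6.82 CPM in the other WT libraries. The same library, KO replicate 4, accounts for 3 of the 5.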

How the results depend on the processing

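No alternative called any of the 30 members at an adjusted p under 0.05, and the lowest adjusted p of a member in any of them was 0.368. The count of genes called over the whole table was 0 with edgeR, 5 with DESeq2, 1 with the replicate block, and 0 to 1 with each library left out. Genes with an unadjusted p under 0.05 numbered 1000, but 556 without WT replicate 4, 640 without KO replicate 2 and 1777 without KO replicate 4. Members with an unadjusted p under 0.05 numbered 2, but 1 with no filter, with the replicate block and with DESeq2. Members higher in KO numbered 23 to 25 under the other settings, the replicate block giving 23, and 16 to 24 with a library left out. The replicate numbers gave no sign of pairing the samples. Same-numbered libraries correlated between -0.22 and 0.14 in their deviations from the genotype means, and 2 of 8 correlated best with their own number. With 4 libraries per genotype this check cannot decide whether the samples were paired.

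The homeostatic minus reactive difference between genotypes, -9.74e-05, stayed within the spread between libraries. It was 0.0018 with a prior count of 0.5, -0.00012 with DESeq2 size factors and -0.11 with medians over members. It was -0.019 with 5 genes moved to the reactive class and -0.014 without Cd74 and Itgax. With a library left out it ran from -0.079 (without WT replicate 2) to 0.072 (without WT replicate 1). The replicate block gives -9.74e-05 again by construction, since each replicate number occurs in both genotypes. Of 389 values of single members under an alternative, 39 had the other sign, and 14 members never did. With a filter of 1 CPM in 4 libraries, which drops Itgax, P2ry13 was at 0.0030 and Ptprc at 0.0054. With a library left out, the log2 fold change ran from -0.015 to 0.056 for Cx3cr1, -0.028 to 0.061 for P2ry12, -0.044 to 0.090 for P2ry13, -0.017 to 0.081 for Gpr34, -0.11 to 0.12 for Olfml3, -0.030 to 0.086 for Trem2, -0.092 to 0.066 for Cd68 and -0.27 to 0.43 for Cd74. It ran from -0.0069 to 0.14 for Ctss, -0.10 to 0.0089 for Lgmn, -0.089 to 0.035 for Itgam, -0.018 to 0.14 for C1qa, -0.052 to 0.14 for C1qb, -0.052 to 0.079 for Cd53, -0.040 to 0.17 for Ly86 and -0.28 to 0.15 for Ptprc. The cause was not tested. Leaving out KO replicate 4 alone gave the other sign in 9 members. Depth limits Itgax, with 7 to 21 counts per library.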

Other observations

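The ratio of Siglech to Cx3cr1, both genes of homeostatic microglia, was 0.202, 0.189, 0.196 and 0.204 in WT replicates 1 to 4 and 0.228, 0.238, 0.214 and 0.227 in KO replicates 1 to 4. The genotypes did not overlap in this ratio, but they did in every other ratio of members formed here. The pair was chosen after the values were seen, and Siglech had the smallest p of the members, so no test is given. The ratio of Cd33 to Cx3cr1 was 0.122 ± 0.0080 in WT and 0.137 ± 0.012 in KO, and the genotypes overlapped.

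In KO replicate 4 the members pointed in different directions within the homeostatic class. P2ry12, P2ry13 and Gpr34 were at their lowest level of the KO libraries there, while Csf1r, Tmem119 and Olfml3 had their highest level of all 8 libraries. For Tmem119 the lead was slight, at 36.67 CPM against 36.54 CPM in WT replicate 1. Cx3cr1, Siglech and Selplg were at neither end. The ratio of C1qb to Cx3cr1 was 0.775 in that library and between 0.552 and 0.649 in the other 7.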
